A study of Mus musculus with 2 samples.

Results

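The genes described here encode the proteins of the cytosolic ribosome. They were chosen by name alone: every gene name in either section that reads Rpl or Rps followed by a digit, Rplp followed by a digit, or Rpsa, leaving out names with -ps (annotated pseudogenes) and the Rps6k kinases. The rule took 87 of the 22204 gene names. Of these, 77 are core ribosomal proteins, 46 of the large (60S) subunit and 31 of the small (40S) subunit. A further 8 are paralogues, near copies of a core gene, and 2 are not ribosomal proteins although their names match (Rps19bp1, a regulator of the deacetylase Sirt1, and Rps23rg1, a retrotransposed copy of Rps23 with another product).

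Slide-seq was used, in which a tissue section lies on an array of barcoded beads of known position and each bead captures polyadenylated RNA from the cells above it. One section came from a young C57BL6/J female of 2 months (replicate 3) and 1 from an old C57BL6/J female of about 14 months (replicate 1). Neither group carries a transgene or received a treatment, as far as the labels state. Sections of 10 µm were picked for capture because they showed several oocytes. Each age has 1 library, so age, animal, plane of section and library cannot be told apart, age was not tested, and the intervals given are 95% intervals that cover counting error only.

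A ribosome needs 1 copy of nearly every core protein, and the genes for them lie scattered over the chromosomes. Their mRNAs commonly begin with a C and a run of pyrimidines, the terminal oligopyrimidine (TOP) start, through which the mTOR pathway and the RNA-binding protein Larp1 set how strongly they are translated. Growing oocytes store ribosomes for the embryo, while granulosa cells, which surround the oocyte and divide, and luteal cells, which make progesterone, synthesise protein for growth and for hormone production. The level of an mRNA is therefore a partial measure of ribosome production.

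The start sequences of 6 members are printed because the values that follow turn on these genes: Rps21, Rpl39 and Rpl27a stood higher in the old section, Rpl34 and Rpl4 lower, and Rpl39l lay mainly near oocytes. Each line holds the 10 bases before an annotated transcript start and the 20 from it on, 5′ to 3′ on the gene's strand, from the RefSeq table for GRCm38.p6. Capitals mark a C followed by at least 6 letters that are each C or T. A line with no capitals has no such run in this window.
Rps21: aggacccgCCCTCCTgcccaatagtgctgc
Rpl39: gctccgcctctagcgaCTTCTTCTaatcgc
Rpl27a: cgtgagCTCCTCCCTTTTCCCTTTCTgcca
Rpl34: CTTTTCCTCTTCCggggacggtgctcagag
Rpl4: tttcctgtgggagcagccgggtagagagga
Rpl39l: aggCCTTTCCggatttccggtggtcgccat
These windows lie at chr2:180257369-180257398 (Rps21, plus strand), chrX:37085203-37085232 (Rpl39, minus strand), chr7:109519185-109519214 (Rpl27a, plus strand), chr3:130730318-130730347 (Rpl34, minus strand), chr9:64173377-64173406 (Rpl4, plus strand) and chr16:10170218-10170247 (Rpl39l, plus strand). Rps21 and Rpl34 each have 2 annotated starts, and the one with the run is shown.

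The table held a promoter for 67 of the 87 members, 57 of them core. Within 50 bases of an annotated start, 49 of the 57 core genes (86.0%, 74.2 to 93.7) carried such a run on the sense strand, against 44.5% of the 27025 genes in the table. On the other strand the core share was 35.1%, against 47.5% of genes. Within the 30-base window printed above, 27 of 57 core genes (47.4%) carried it, against 15.6%. The motif CCGGAAGT, the core of sites bound by Ets-family factors such as Gabpa, was searched on both strands of the 300-base promoter. It was found in 11 of the 57 core genes (19.3%) and in 4.31% of the table. TATAAA, the TATA box, was found in 6 (10.5%) against 15.7%. These are matches of letters. The measured members with the run (47) had a median old/young ratio of 1.33 and the 7 without it 1.28. The motifs other than the run were chosen after the sequences had been seen.

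The young section held 5158314 counts on 21403 beads and the old section 2348768 on 10267 beads, with medians of 153 and 125 counts per bead. No bead barcode was shared. Ovarian lists were present in both sections with none of their genes at 0 (oocyte, granulosa, theca and luteal), but their levels differed. The oocyte list had 3436 CPM (counts scaled to a total of 1000000) for the young and 326 for the old section, with 21 of 21 genes at least 1.5-fold lower, and the granulosa list 10443 and 2652 CPM, with 10 of 12 lower. The luteal list had 19157 and 25826 CPM (4 of 10 higher, 1 lower), and the surface epithelium list 111 and 525 CPM (8 of 9 higher). The periovulatory list had 29.9 and 1611 CPM (5 of 5 measured genes higher, with Areg, Edn2, Has2 and Ptgs2 at 0 in the young section). It held 154 young and 3784 old counts over 10 genes, so genes passed the minimum of 20 counts more easily through the old section. Its count of 5 of 5 is therefore no separate support. Genes of proliferation had 1580 and 924 CPM (1 of 16 higher, 9 lower). Over all 12586 genes with at least 20 counts in 1 section, 22.6% were at least 1.5-fold higher and 25.4% lower. The old/young ratios of the theca, stromal fibroblast, smooth muscle, macrophage, red blood cell, blood endothelium, and T and NK lists ran from 0.806 to 1.61, and the B and plasma list, on 53 and 133 counts, had 5.51. The part of these differences in the results on ribosomal protein genes was not tested across whole sections, and fewer cells of a type cannot be told apart from less RNA per cell.

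Ribosomal protein genes took a similar share of counts in both sections. In the young section the 87 genes held 103432 counts, 2.005% of the total (1.993 to 2.017), and in the old section 44270 counts, 1.885% (1.867 to 1.902). The old/young ratio was 0.940 (0.930 to 0.951). This small deficit rested on Rps14 and Rpl4, the genes with most counts, a protein of the 40S platform and one whose extension lines the tunnel through which the new peptide leaves the ribosome. Together they took 32.3% of the members' counts for the young section and 18.9% for the old. Without Rps14 the ratio was 1.03, and without both genes 1.13 (1.11 to 1.14), so the direction of the summed share turned with them. At least 1 member count was found on 82.8% of young and 76.1% of old beads.

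Levels ranked alike in the sections. Over the 79 members with at least 20 counts in 1 section, called measured below, the log2 CPM of the sections had a Pearson correlation of 0.943 and a Spearman correlation of 0.945, across genes, which are not replicates. Counts are not scaled by transcript length, so a gene's share is not its level relative to another gene. Many of these genes have processed pseudogenes, and how reads matching several places were counted is not given in the sources used here, so low counts of single members are uncertain.

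**Figure D1:**
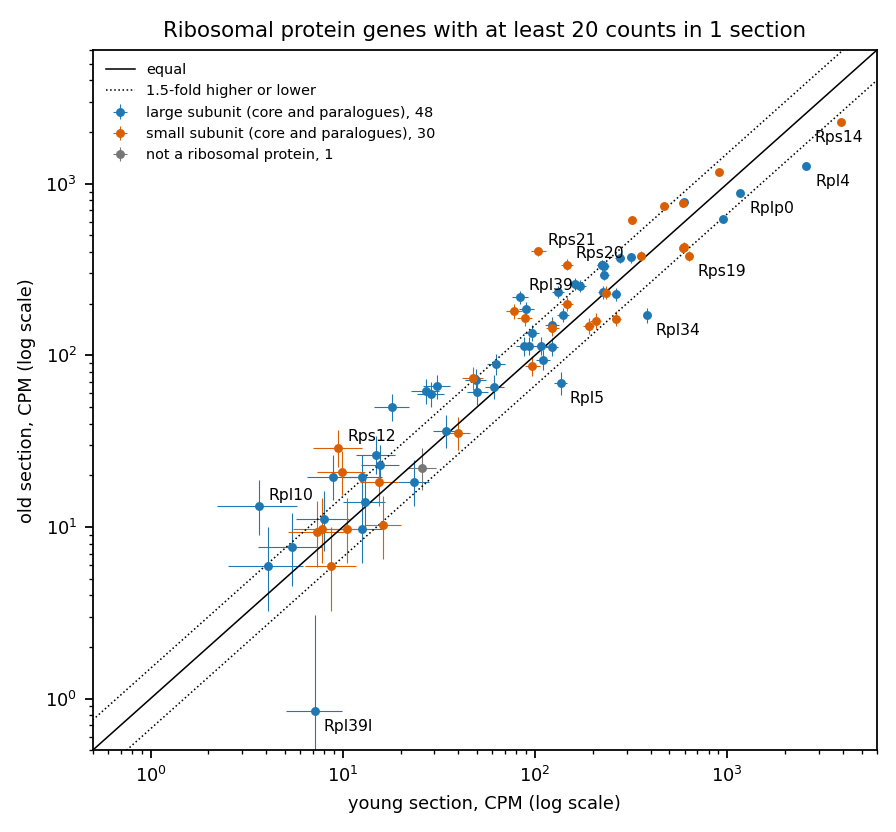
CPM in the young (x) and old (y) section, both on log scales, for the 79 ribosomal protein genes with at least 20 counts in 1 section; bars are exact 95% Poisson intervals, the solid line marks equal levels and dotted lines 1.5-fold differences. Rps14 and Rpl4 lie at the upper right below the lower dotted line, while Rps21, at 104 CPM against 404 CPM, lies furthest above the upper one among the genes with over 100 CPM in either section.

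Counted gene by gene, more members stood higher than lower in the old section. Among the 79 measured, 22 (27.8%) stood at least 1.5-fold higher, and 9 (11.4%) at least 1.5-fold lower. Of these, Rpl10 (19 and 31 counts) passed the minimum only through the old section and Rpl39l (37 and 2) only through the young. Their calls are therefore no separate support. Over all 12586 genes measured the same way, 22.6% were higher and 25.4% lower by that size, so the share of higher members was near the background and the share of lower members below it. The median member ratio was 1.27, against 0.988 over all measured genes. The counting interval lay above 1 for 41 members, below 1 for 16, and held 1 for 22. The same count was not made over all genes, so these numbers have no background here.

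The counts differed with abundance. Among the 40 members with at least 500 counts in a section, 8 were higher and 7 lower (20.0% and 17.5%, beside 14% and 28.5% of the 2386 genes of that abundance), with a median ratio of 1.18 and a ratio of summed counts of 0.902. Among the 39 members with at least 20 but under 500 counts, 14 were higher and 2 lower (35.9% and 5.13%, beside 24.6% and 24.7% of 10200 genes), with a median of 1.41 and a summed ratio of 1.48. Across the 79 members the log2 young CPM and the log2 ratio had a Pearson correlation of -0.25, in which the young counts enter both quantities. Gene model length and ratio had one of -0.16.

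**Figure D2:**
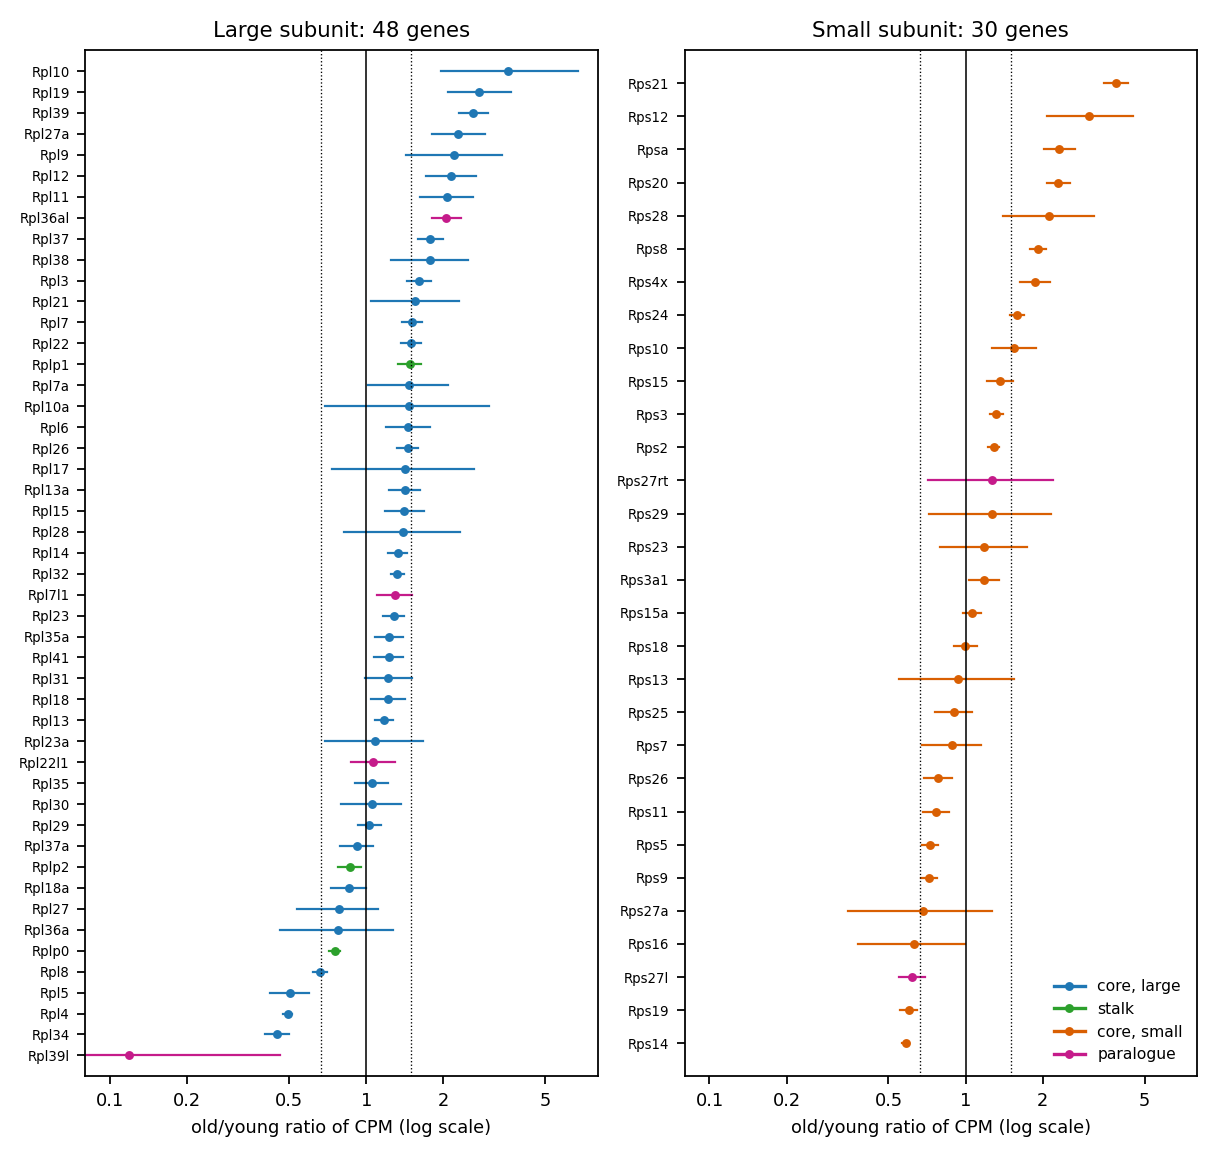
Old/young ratio of CPM on a log scale for the 48 measured large-subunit and 30 measured small-subunit genes, ordered by ratio, with exact conditional binomial 95% intervals; dotted lines mark 1.5-fold differences and colours mark core, stalk and paralogue genes (Rps19bp1 is not drawn). Large-subunit ratios run from 0.119 for Rpl39l to 3.58 for Rpl10, and small-subunit ratios from 0.584 for Rps14 to 3.87 for Rps21; the lower end of the Rpl39l interval, 0.0139, lies off the axis.

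In the large subunit, 44 of 46 core genes were measured. Of them 12 were at least 1.5-fold higher and 4 lower (27.3% and 9.09%, beside 22.6% and 25.4% of all genes). Ratios lay above 1 for 34 of the 44, beside 6185 of all 12586 genes measured, and the median ratio was 1.36. Their summed counts took 0.956% of the young and 0.882% of the old total.

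Rpl39 encodes a very small protein of the peptide exit tunnel. It had 83.4 CPM in the young section (430 counts) and 218 in the old (513 counts), a ratio of 2.62 (2.30 to 2.99). Rpl19, which forms a bridge between the subunits, had 18.0 and 49.8 CPM on 93 and 117 counts, a ratio of 2.76 (2.09 to 3.67). Both stood higher in the old section by more than counting error. Rpl27a, whose start carries a run of 20 pyrimidines, had 27.0 and 61.7 CPM, a ratio of 2.29 (1.80 to 2.91). Rpl27a was chosen after its values were seen, and falls just outside the 6 highest ratios among members with at least 50 counts.

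Lower in the old section stood Rpl34, Rpl4 and Rpl5. Rpl34 had 383 CPM (1975 counts) for the young section and 172 (403 counts) for the old, a ratio of 0.448 (0.402 to 0.499), the lowest of the 70 members with at least 50 counts. Rpl4 had 2578 and 1271 CPM on 13297 and 2985 counts, a ratio of 0.493 (0.474 to 0.513). Rpl5 binds the 5S ribosomal RNA together with Rpl11, and the complex can restrain the p53 regulator Mdm2. Rpl5 had 136 and 68.6 CPM, a ratio of 0.504 (0.422 to 0.600), whereas its partner Rpl11 had 28.7 and 59.2 CPM, a ratio of 2.06 (1.62 to 2.62). These partners in 1 complex thus lay on opposite sides of 1. Rpl11 too was chosen after its values were seen.

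Stalk genes encode the acidic arm of the large subunit that recruits elongation factors. Their ratios lay on both sides of 1. Rplp0, the base of the stalk, had 1172 CPM for the young and 881 for the old section, a ratio of 0.752 (0.715 to 0.791). Rplp1 had 172 and 254 CPM, a ratio of 1.48 (1.33 to 1.64). Rplp2, the dimer partner of Rplp1, had 263 and 227 CPM, a ratio of 0.863 (0.779 to 0.954). None of the 3 passed 1.5-fold.

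In the small subunit, 28 of 31 core genes were measured. Of them 9 stood at least 1.5-fold higher and 3 lower (32.1% and 10.7%, beside the same 22.6% and 25.4%). Ratios lay above 1 for 16 of the 28, beside 6185 of all 12586 genes measured, and the median ratio was 1.18. Their summed counts took 0.994% of the young and 0.947% of the old total. The count of small over large subunit genes was 1.04 for the young and 1.07 for the old section, and the ratio of these was 1.03 (1.02 to 1.05). Without Rps14 and Rpl4 it was 1.10.

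Rps21, a small 40S protein, had the highest ratio of any member with at least 50 counts. It had 104 CPM (538 counts) for the young section and 404 (948 counts) for the old, a ratio of 3.87 (3.48 to 4.31). Rps12, of the 40S head, had 9.50 and 29.0 CPM on 49 and 68 counts, a ratio of 3.05 (2.08 to 4.49). Rpsa, also known as the laminin receptor and needed for 40S maturation, had 77.7 and 181 CPM, a ratio of 2.32 (2.02 to 2.67). Rps20, which contacts ribosomal RNA in the 40S head, had 147 and 338 CPM, a ratio of 2.30 (2.08 to 2.55). Their counting intervals all excluded 1.5.

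Rps14 had 3904 CPM (20140 counts) for the young section and 2282 (5359 counts) for the old, a ratio of 0.584 (0.567 to 0.602). Its human counterpart lies in the deletion of the 5q- syndrome, a disorder of red cell production. Rps19, the gene most often mutated in Diamond-Blackfan anaemia, had 630 and 378 CPM on 3251 and 887 counts, a ratio of 0.599 (0.556 to 0.646). Both lay below the 1.5-fold line. With Rps2 at 909 and 1172 CPM (ratio 1.29), a 40S protein near the mRNA entry site, Rps14 and Rpl4 were the 3 members with most counts in the old section, whereas Rplp0 took the place of Rps2 in the young one.

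When each quadrant of each section was left out in turn, the 6 highest and the 6 lowest members named by ratio kept their side of 1. They were chosen by ratio from these same counts, and each run kept most of those counts. Keeping their side of 1 was therefore likely from the start and is no separate support. Rps21 ranged from 3.65 to 4.19, Rps14 from 0.563 to 0.611 and Rpl34 from 0.409 to 0.472. No ratio of these 12 genes moved by more than 1.5 times.

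Paralogues were compared with their parent genes, since the share of a pair does not depend on the section's total. The pair known from germ cells had the lowest shares in the old section beside Rpl3l. Rpl39l, an autosomal copy of the X-linked Rpl39 known from male germ cells, had 37 counts (7.17 CPM) for the young and 2 counts (0.852 CPM) for the old section, a ratio of 0.119 (0.0139 to 0.460). It made up 7.92% (5.64 to 10.8) of the counts of the pair for the young and 0.388% (0.0471 to 1.40) for the old section. Rpl10l, a copy of the X-linked Rpl10 that replaces it in male meiosis, had 18 and 2 counts, below the minimum of 20, and made up 48.6% (31.9 to 65.6) and 6.06% (0.743 to 20.2) of its pair. Rpl10 itself had only 19 and 31 counts. How reads matching several places were counted is not given, so the shares of this pair are uncertain. On its 2 old counts the Rpl39l ratio moved from 0.0752 without the old quadrant of low x and low y to 0.158 without that of low x and high y.

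Rpl39l lay where oocyte genes lay. For position, each section was divided into square bins of 5 bead spacings, and bins with at least 500 counts were kept, 1581 for the young and 1416 for the old section. In the 10% of young bins with the highest share of the oocyte list (oocyte-rich bins, 158 bins with 16.1% of counts) lay 30 of the 37 Rpl39l counts (81.1%, 64.8 to 92.0), in 23 bins. Its level there was 37.6 CPM against 1.64 in the other bins, a ratio of 22.8 (9.83 to 61.6). Rpl10l had 11 of its 18 counts there, a ratio of 8.38 (2.96 to 25.5). Of the parents, Rpl39 had 71 of 417 counts in these bins (17.0%), and Rpl10 had 0 of 18. Over all 11956 genes measured in this contrast, 22.1% were at least 1.5-fold higher in oocyte-rich bins and 26.1% lower. Of 76 measured members, 2 were higher and 8 lower. Beside Rpl39l the other was Rps27a, a small-subunit protein made fused to ubiquitin, with 13.8 against 7.28 CPM on 11 and 31 counts. Rpl39l was also higher in proliferation-rich bins (25.5 against 3.77 CPM), and it had 1 of 37 counts in granulosa-rich bins. Ranked in 10 classes by the proliferation list, the richest young bins held 1.08% oocyte-list counts, against 0.109% in class 4 and 0.0570% in class 10. The oocyte-rich and proliferation-rich results for Rpl39l therefore cannot be told apart. In the old section, whose oocyte list had 766 counts and so was not split by the rule, 1 Rpl39l count and 0 of the 1 Rpl10l count in bins lay in the corresponding 10% of bins.

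The remaining paralogues are given next, followed by Rps4x, a core gene. Rps27l, a p53-inducible copy of Rps27, had 264 and 164 CPM, a ratio of 0.618 (0.551 to 0.693), and outnumbered its parent, which had 14 and 2 counts. Rpl36al, an autosomal copy of the X-linked Rpl36a, had 90.2 and 185 CPM, a ratio of 2.05 (1.80 to 2.35), and made up 87.7% (84.6 to 90.4) of its pair for the young and 94.98% (92.6 to 96.8) for the old section. This X-linked parent was thus the minor source of counts in both sections. The unknown counting of reads matching several places limits what the low counts of Rps27 and Rpl36a show. Rpl22l1, which Rpl22 is known to repress, had 61.5 and 65.6 CPM and made up 21.6% (19.5 to 23.8) and 16.4% (14.1 to 18.9) of its pair, while Rpl22 itself had 224 and 334 CPM. Rpl7l1, a factor of large-subunit assembly, had 87.4 and 113 CPM, a ratio of 1.29 (1.11 to 1.50), beside 222 and 335 CPM for Rpl7. Rps27rt, a retrocopy of Rps27, had 38 and 22 counts, and its ratio of 1.27 (0.716 to 2.20) crossed 1 when single quadrants were left out. Rpl3l, the striated muscle form of Rpl3, had 2 counts and 0, against 832 and 610 for Rpl3. Rps4x, the X-linked small-subunit gene, had 88.2 and 165 CPM, a ratio of 1.87 (1.63 to 2.14).

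Several members were hardly detected. Fewer than 20 counts in both sections were found for 8 members, among them Rpl36, Rpl3l, Rps6, Rps23rg1, Rpl10l, Rps27 and Rpl24. Rps6, the best known substrate of the S6 kinases, had 10 counts (1.94 CPM) for the young section and 0 for the old, where a floor of 3 counts corresponds to 1.28 CPM. The counting interval of its old/young ratio ran from 0 to 0.980, so on these counts a difference close to none is allowed. Rpl36, Rpl3l and Rps23rg1 were at 0 in the old section as well, on 2, 2 and 1 young counts. Rps19bp1 had 25.8 and 22.1 CPM, a ratio of 0.859 (0.611 to 1.19). Nearest to the 1.5-fold line among the measured members were Rpl7 (1.51) just inside it and Rpl22 (1.495, 1.36 to 1.64) just outside it on the higher side, and Rpl8 (0.660) just inside it on the lower side.

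Rack1 and Fau, genes of the ribosome outside the name rule, differed by less than 1.5-fold. Rack1, a scaffold on the 40S head, had 395 CPM for the young and 432 for the old section, a ratio of 1.09 (1.01 to 1.18). Fau, a small-subunit protein fused to a ubiquitin-like one, had 4.07 and 4.68 CPM on 21 and 11 counts.

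Translation factors were mixed. Of 6 measured elongation factor genes, 1 was at least 1.5-fold higher and 0 lower, beside the 22.6% and 25.4% of all genes. It was Eef1d, of the complex that recharges eEF1A with GTP, at 429 and 699 CPM (ratio 1.63, 1.53 to 1.74). Eef2, which moves the ribosome along the mRNA, had 890 and 1153 CPM (1.30), Eif5a 170 and 221 CPM (1.30), Eef1b2 601 and 534 CPM (0.888) and Eef1a1 334 and 317 CPM (0.948). Of 28 initiation factor genes, 2 were higher and 6 lower (7.14% and 21.4%), with a median of 1.06. Eif1, which guards start codon choice, had 581 and 270 CPM (0.465, 0.426 to 0.507) and its partner Eif1ax 386 and 200 CPM (0.517). At the other end lay Eif2s3x, a subunit of the factor that brings the initiator tRNA, at 13.4 and 26.8 CPM (2.01, 1.40 to 2.86), and Eif3b at 197 and 302 CPM (1.53).

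Other genes known for a TOP start, 23 in number, had 8 higher and 1 lower (34.8% and 4.35%, beside 22.6% and 25.4% of all genes), with a median ratio of 1.20 against 0.988. The intermediate filament gene Vim had 166 and 517 CPM (3.12, 2.85 to 3.41), the snoRNA host Snhg1 46.1 and 129 CPM (2.81), and Tpt1, the translationally controlled tumour protein, 9.11 and 25.1 CPM on 47 and 59 counts (2.76, 1.85 to 4.13). Pabpc1, the poly(A)-binding protein, was the 1 lower gene, at 2139 and 1147 CPM (0.536, 0.514 to 0.559). Btf3 had 0.858 (0.668 to 1.10).

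Of 31 measured ribosome assembly genes, 7 were higher and 4 lower (22.6% and 12.9%), beside 22.6% and 25.4% of all genes, so the higher share was at the background. Sbds, which frees the large subunit of its anti-joining factor, had 84.1 and 173 CPM (2.05, 1.79 to 2.36). Pes1 and Wdr12, partners in the complex that matures the large subunit, differed in direction: Pes1 had 81.2 and 157 CPM (1.93, 1.68 to 2.23) and Wdr12 133 and 50.2 CPM (0.377, 0.307 to 0.459). Nop10, of the particles that pseudouridylate ribosomal RNA, had 175 and 76.6 CPM (0.437).

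The mitochondrial ribosome is a separate machine, and 76 of its nuclear genes were measured. Of these 9 were higher and 19 lower (11.8% and 25.0%, beside 22.6% and 25.4% of all genes), with a median of 0.947, near the 0.988 of all genes. The extremes were Mrpl49 at 1.98, Mrpl43 at 1.90, Mrps12 at 0.473 and Mrpl42 at 0.447. The 10 measured mitochondrially encoded genes had 0 higher and 6 lower (0% and 60%, beside the same 22.6% and 25.4%), and their counts were 1.79% of the young and 1.37% of the old total. Of 16 growth pathway genes, 1 was higher and 3 lower (6.25% and 18.75%, both below the shares of all genes). Among them the S6 kinase gene Rps6kb2 had 2.54 (1.82 to 3.55), Larp1 1.36 (1.10 to 1.68), Rps6ka3 0.604 and Mycn 0.549. Of 13 measured genes of nascent chain and translation stress, 3 were higher and 2 lower (23.1% and 15.4%, the former near the 22.6% of all genes). At the ends lay the stress transcription factor Atf4 at 46.0 and 144 CPM (3.14, 2.65 to 3.72), the cell cycle inhibitor Cdkn1a at 46.1 and 127 CPM (2.75), and the stress kinases Eif2ak2 and Eif2ak4 at 0.533 and 0.531.

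Within each section the share of ribosomal protein counts varied with position. In the young section the median bin had 1.92% and the 5th to 95th percentiles were 1.09 and 3.60%. In the old section the median was 1.87%, with 0.993 and 3.05%. After each bin was thinned to 500 counts, the variance of member counts over bins was 2.18 times their mean for the young and 1.52 times for the old section, where counting alone gives 1. Moran's I, which is near 0 without spatial order, was 0.367 over the 8 adjoining bins for the young and 0.240 for the old section. In the same bins the granulosa list had 0.786 and 0.310 and the mitochondrially encoded genes 0.324 and 0.207. Rps14 alone had 0.109 and 0.0215, and without Rps14 and Rpl4 the other members had 0.305 and 0.249. Mean counts per thinned bin were 10.4 and 9.72 for all members, 2.10 and 1.15 for Rps14, and 4.10 and 1.13 for the granulosa list. Low means bound Moran's I, so values on unlike means cannot be compared directly. Across thinned bins the counts of large-subunit genes without Rpl4 and small-subunit genes without Rps14 had a Pearson correlation of 0.352 for the young and 0.208 for the old section. These bins share a library and a depth, and neighbouring bins are not independent.

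**Figure D3:**
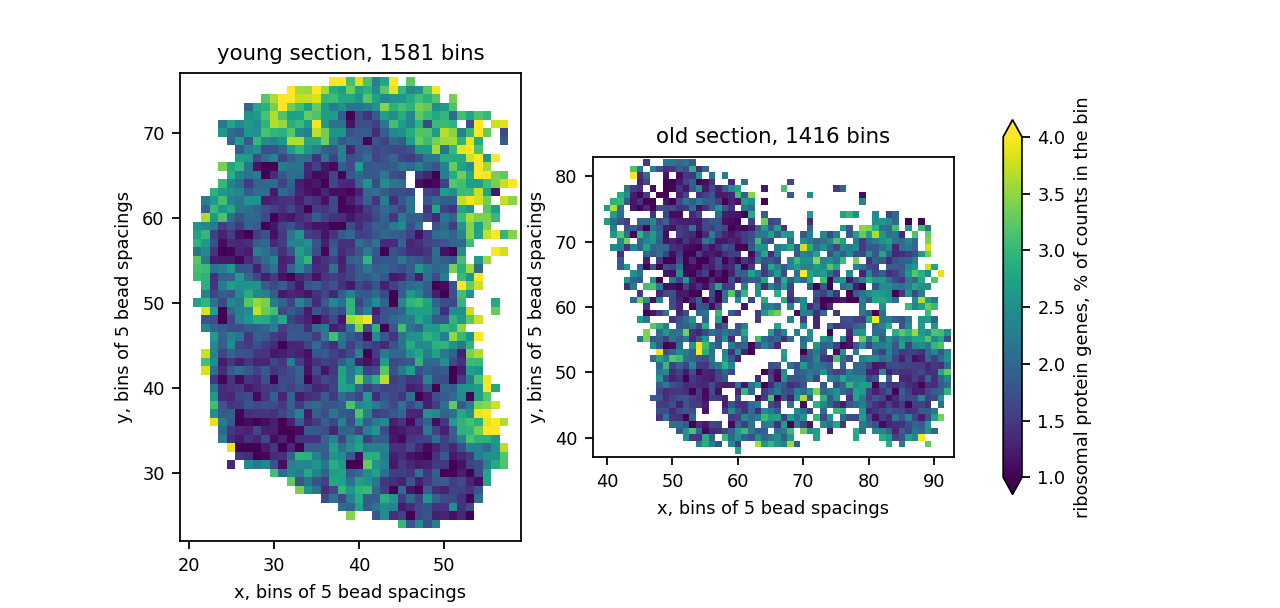
Ribosomal protein genes as a percentage of the counts in each bin of 5 bead spacings with at least 500 counts, for the young (1581 bins) and the old section (1416 bins); axes are positions in bins, white is uncovered, the colours run from 1 to 4% and a few isolated bins off the tissue are cropped. Yellow and green bins lie along the rim of the young section and in patches inside it, and dark bins fill large areas of both sections.

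The share was highest at the rim. Layers of bins were counted inwards from the edge of the covered area after filling holes, and the edge may be that of the tissue or of the array. In the young section layer 1 had 2.82% (2.76 to 2.87), layers 2 and 3 had 2.18%, layers 4 to 6 had 1.99%, and layer 7 and deeper had 1.70% (1.69 to 1.72). In the old section these were 2.31% (2.26 to 2.36), 1.89%, 1.74% and 1.75% (1.72 to 1.79). The old/young ratio was 0.820 (0.795 to 0.846) in layer 1 and 1.03 (1.01 to 1.05) in layer 7 and deeper. The bead spacing was 12.5 for the young and 9.88 for the old section, in position values with no stated unit. A layer of the same number may therefore not lie equally far from the edge in both. Beads outside the bins of at least 500 counts had 3.05% for the young and 2.20% for the old section.

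Rim bins were shallow, with a median of 1088 counts against 2439 in layer 7 and deeper in the young section, and 1010 against 1136 in the old. Shallow bins had higher shares over the whole section too, 2.28% in the shallowest and 1.94% in the deepest of 3 equal depth classes of young bins, and 2.05% and 1.78% in the old. Within each class, layer 1 had a higher share than layer 7 and deeper: in the deepest class of young bins it had 2.94% (2.79 to 3.10) on 9 bins, against 1.63%, and in the deepest class of old bins 2.17% (2.09 to 2.25) on 61 bins, against 1.65%. The surface epithelium list also went with the rim, at 381 CPM in layer 1 and 24.2 in layer 7 and deeper of the young section. Its old levels were 2004 and 89.2 CPM, with none of its 10 genes at 0 in either whole section. The stromal fibroblast list was higher in layer 1 too, at 3708.5 against 2631 CPM for the young and 3566 against 2868 for the old section. The luteal list ran the other way, from 16018 to 28841 CPM for the young and from 20751 to 33321 for the old section. Mitochondrially encoded genes went from 24727 to 20121.5 CPM inwards in the young section and from 13253 to 14108 in the old. Other lists are not reported here by layer. Their part in the rim pattern was not tested.

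**Figure D4:**
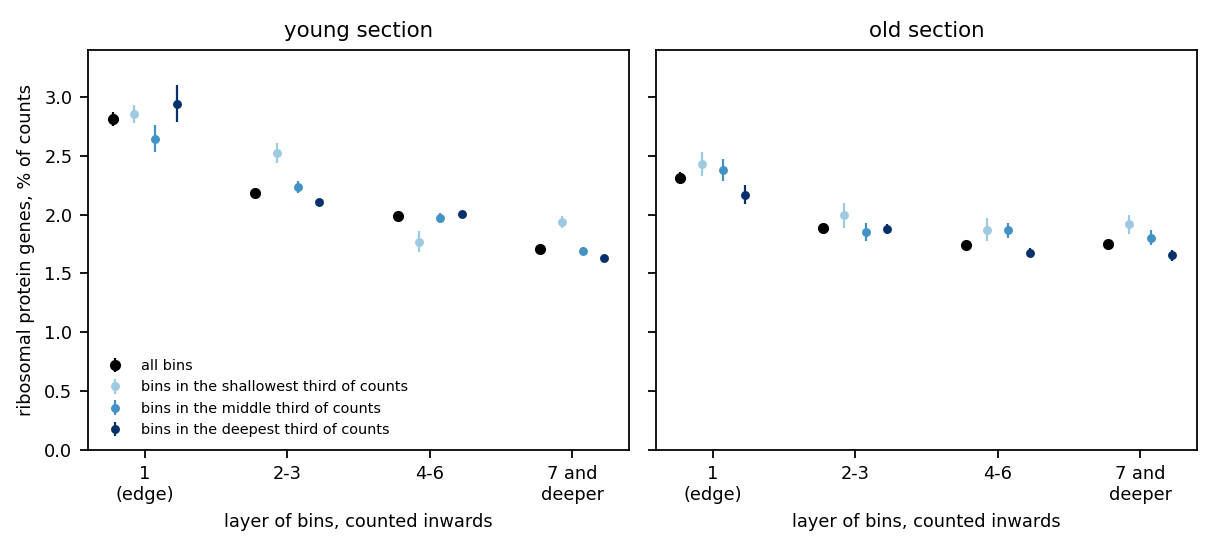
Ribosomal protein genes as a percentage of counts (y) by layer of bins counted inwards from the edge (x), for all bins (black) and for 3 classes of bins by total counts (blue), with exact 95% binomial intervals for counting error. In both sections layer 1 lies above layer 7 and deeper in each class, and the step from layer 1 inwards is larger in the young section, from 2.82 to 1.70%, than in the old, from 2.31 to 1.75%.

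The rim pattern held for most members rather than a few. In the young section, 49 of 64 members with at least 20 counts in layer 1 or in layer 7 and deeper were at least 1.5-fold higher in layer 1 and 0 were lower, beside 17.4% and 22.1% of 9437 genes. The ratio was above 1 for each of the 64, and the median was 1.83 against 0.987 over all genes. In the old section 16 of 56 were higher and 0 lower, beside 13.8% and 15.3% of 6039 genes, with a median of 1.33. Among the 54 young members with at least 50 counts in layer 1 or in layer 7 and deeper, Rpl18 had the highest ratio, with 254 CPM at the rim and 68.1 deep (3.73, 2.77 to 4.99), followed by Rpl14 with 540 and 206 CPM (2.63) and Rpl13 with 616 and 237 CPM (2.60). At the low end were Rpl5, with 162 and 138 CPM (1.17, 0.850 to 1.59), and Rpl4, with 2785 and 2266 CPM (1.23, 1.14 to 1.32). In the old section, among the 47 members of that abundance, Rpl37a had 197 and 96.2 CPM (2.05, 1.41 to 3.00) and Rpl36al 160 and 201 CPM (0.794, 0.559 to 1.11). These genes were taken as the ends of the ranking after the values were seen. Rps21, the member with the highest age ratio, had like ratios at the rim of both sections, 1.55 (1.09 to 2.17) for the young and 1.54 (1.26 to 1.89) for the old.

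Bins rich in a cell type's markers differed in their ribosomal protein share. Luteal-rich bins, the 10% with the highest luteal share, had 1.62% against 2.06% in the other young bins, a ratio of 0.788 (0.768 to 0.808), and 1.45% against 1.97% in the old section, a ratio of 0.739 (0.713 to 0.766). Of 78 young and 71 old measured members, 26 and 26 were at least 1.5-fold lower there and 1 (Rpl7a) and 2 (Rpl22l1 and Rpl38) higher, beside 31.0% and 31.3% of all genes lower and 11.6% and 14.3% higher. The share of lower members was thus near the background, while the median ratios, 0.759 and 0.729, lay below those of all genes, 0.885 and 0.877. Members with at least 50 counts in the luteal-rich bins were ranked relative to the summed members. In the old luteal-rich bins Rpl36al was highest (235 against 179 CPM, 1.78 times, 1.30 to 2.38), followed by Rps21 (1.44 times). In the young ones Rpl5 was highest (160 against 136 CPM, 1.49 times, 1.13 to 1.94) and Rps19 lowest (372 against 658 CPM, 0.718 times). Rpl22l1, on 24 counts in the old luteal-rich bins, was under that minimum at 2.37 times (1.46 to 3.70).

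The highest shares relative to the other old bins were those of stromal fibroblast-rich and smooth muscle-rich bins. Their ratios to the other bins were 1.24 (1.20 to 1.28) and 1.22 (1.18 to 1.26) in the old section, with 13 of 70 and 13 of 72 members at least 1.5-fold higher, beside 16.8% and 15.6% of all genes, and 0 and 4 lower, beside 23.3% and 24.9%. The difference between the sections was not tested. The young ratios were 1.00 (0.977 to 1.03) and 1.03 (1.01 to 1.06). In the old stromal-rich bins, members with at least 50 counts were ranked relative to the summed members. Rpl22 (494 against 309 CPM) and Rps2 (1672 against 1101 CPM) were highest, at 1.29 and 1.23 times, and Rpl8 was lowest, at 0.809 times.

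Proliferation-rich bins had ratios of 1.09 (1.07 to 1.11) for the young and 1.18 (1.14 to 1.21) for the old section. There Rps19 had 805 against 590 CPM in the young section (1.25 times the summed members, 1.15 to 1.36) and Rps15 327 against 185 CPM in the old (1.51 times, 1.17 to 1.93), while Rps14 stood at 0.856 times in the young. In the young section 4 of 76 members stood at least 1.5-fold higher there and 1 lower (Rps27rt, on 2 counts), beside 20.5% and 25.6% of all genes, and of 70 old members 9 and 3, beside 14.1% and 19.6%. The 4 were Rpl39l, Rps23 (27.9 against 12.5 CPM), Rps13 (15.8 against 9.43 CPM) and Rpl27a (38.9 against 25.2 CPM). Rpl39l, on 21 against 16 counts, passed the minimum of 20 only through the proliferation-rich bins, so its call is no separate support.

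Theca-rich bins had ratios of 0.863 for the young and 0.839 for the old section, with 24 of 78 and 17 of 71 members lower, beside 34.2% and 25.3% of all genes, and 1 and 1 higher, beside 12.1% and 11.1%. For periovulatory-rich bins of the old section the ratio was 0.801 (0.780 to 0.824). There 23 of 71 members were lower and 1 higher (Rpl21, 28.3 against 17.7 CPM), beside 29.2% and 12.5%. Macrophage-rich and red blood cell-rich bins of the young section had ratios of 0.921 and 1.02. In the red blood cell-rich bins 2 of 77 members were higher and 5 lower, beside 10.3% and 23.7%, and in the macrophage-rich bins 2 of 78 and 9, beside 12.9% and 23.3%.

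Oocyte-rich bins of the young section had 1.65% against 2.06%, a ratio of 0.800 (0.786 to 0.815). Relative to the summed members Rpl39 was highest (88.9 against 81.2 CPM, 1.37 times, 1.04 to 1.77) and Rpl37 lowest (87.6 against 138 CPM, 0.796 times) of the members with at least 50 counts there. These bins were deep, with a median of 4100.5 counts against 2458.

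The granulosa result depended on where the line was drawn. The 10% of young bins richest in granulosa genes had 1.65% and a ratio of 0.800 (0.784 to 0.816), but the next 10% had 2.73% (2.70 to 2.77), the highest of the 10 classes of bins ranked by this list, and the richest 20% together had a ratio of 1.13. The next classes had 2.44% and 2.11%, and the other 6 lay between 1.71 and 1.95%. The richest class had 4.33% granulosa counts with 2.15% luteal counts, and the next one 1.20% and 0.555%, with 0.290% proliferation counts against 0.164%. Old granulosa-rich bins had a ratio of 0.997 (0.968 to 1.03). In the young granulosa-rich bins 0 of 77 members stood at least 1.5-fold higher and 13 lower, beside 10.9% and 28% of all genes. Among members with at least 50 counts in these bins, Rpl14 was lowest relative to the summed members (169 against 294 CPM, 0.720 times). Rpl7l1 (1.35 times) and Rps27l (1.33 times) were highest among them.

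**Figure D5:**
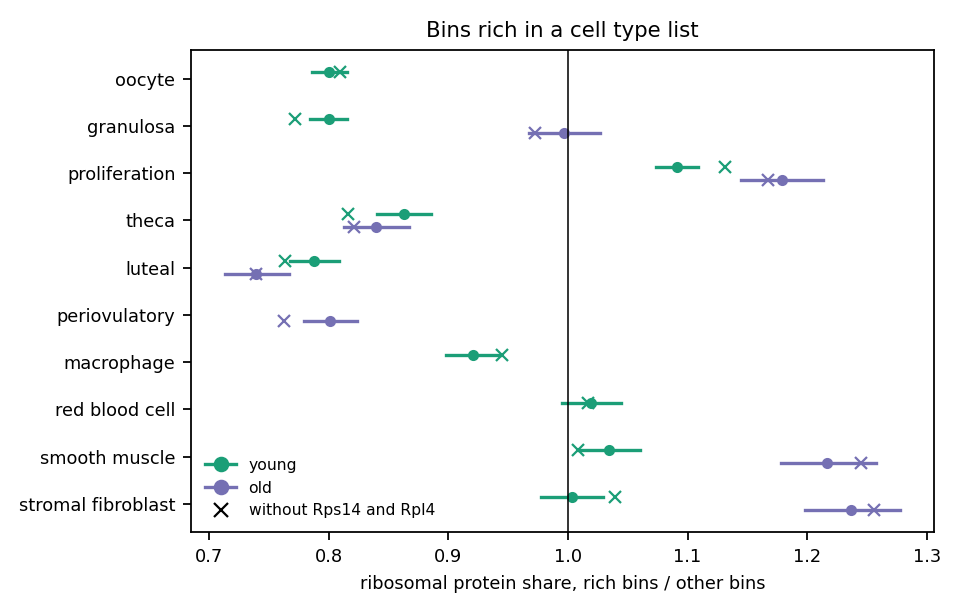
Share of ribosomal protein counts in the 10% of bins richest in each cell type list divided by that in the other bins (x), with the list's own counts left out of the totals; circles with exact 95% intervals for the young and old section, crosses without Rps14 and Rpl4, and no symbol where a list had under 2000 counts. Luteal and theca lie left of 1 in both sections and proliferation right of it, while stromal fibroblast and smooth muscle lie at 1.24 and 1.22 in the old section and at 1.00 and 1.03 in the young.

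The age ratios of single members were then taken within bins rich in the same list in both sections, for the 6 lists that could be split in both. The summed share had old/young ratios of 1.17 (1.13 to 1.21) in granulosa-rich, 1.13 (1.09 to 1.18) in stromal fibroblast-rich, 1.09 (1.04 to 1.13) in smooth muscle-rich, 1.01 (0.977 to 1.04) in proliferation-rich, 0.935 (0.899 to 0.973) in theca-rich and 0.874 (0.837 to 0.912) in luteal-rich bins. In the granulosa-rich bins 32 of 56 members were at least 1.5-fold higher in the old section and 3 lower, beside 22.3% and 26.5% of 6505 genes, with a median of 1.63. These bins were unlike in their granulosa share, at 4.35% (young) and 0.748% (old), and the result turned with the share of bins taken. In the richest 20% the summed ratio was 0.822 (0.804 to 0.841), with 13 of 64 members higher and 13 lower, beside 22.6% and 28% of 8911 genes, and a median of 1.06. In the luteal-rich bins 15 of 50 were higher and 8 lower, beside 21.8% and 30.2% of 4381 genes, with a median of 1.06. The counts were 19 higher and 9 lower of 61 in proliferation-rich bins (beside 21% and 32.9%), 21 and 5 of 48 in smooth muscle-rich (18.8% and 28.2%), 17 and 5 of 49 in stromal fibroblast-rich (18.1% and 26.8%) and 16 and 5 of 47 in theca-rich bins (29.6% and 28.1%). With the richest 20% the summed ratios of these other lists were 0.947 for luteal, 0.956 for proliferation, 1.07 for smooth muscle, 1.10 for stromal fibroblast and 0.874 for theca.

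The 12 genes named by ratio kept their side of 1 in each of these 6 kinds of bin, at 10% and at 20%. They were chosen for their whole-section ratios, which include the counts of these bins. Keeping their side of 1 is therefore no separate support. The ranges that follow are those at 10%. Rps21 ranged from 4.02 in stromal fibroblast-rich to 4.91 in smooth muscle-rich bins, Rpl39 from 2.30 to 3.89, Rps20 from 2.16 to 3.72 and Rpsa from 1.67 to 3.55. Rpl34 ranged from 0.379 to 0.712, Rpl4 from 0.440 to 0.667, Rps14 from 0.510 to 0.770, Rps19 from 0.582 to 0.877 and Rps27l from 0.555 to 0.777. Rpl5 ranged from 0.276 to 0.713, with as few as 10 counts. Rps12 and Rpl19, with as few as 1 and 3 counts, ranged from 1.33 to 18.8 and from 1.51 to 7.49. Rplp2 had ratios on either side of 1, from 0.783 in theca-rich to 1.42 in smooth muscle-rich bins.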

How the data were processed

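Slide-seq libraries of 1 young and 1 old ovary section were analysed. The deposited tables hold whole-number counts per gene and bead, and bead positions with no stated length unit. The genome build was mm10 per the submitters' processing notes; the sources used here give neither the aligner, counting program and annotation nor whether a count is a molecule or a read. Totals were 5158314 and 2348768 counts. Counts were summed over beads and scaled to CPM. Intervals are exact (Poisson, Clopper-Pearson, conditional binomial), and no test was made. A gene absent from 1 table was taken as 0 there.

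The members and the 14 cell type and 8 translation lists were chosen with earlier results of these data known. Named genes were the 6 highest and 6 lowest ratios among members with at least 50 counts, the stalk genes, Rpsa, the paralogues with their parents, Rps19bp1, the 3 members with most counts, those at 0, Fau and Rack1, the 2 highest and 2 lowest of each translation list, and, per cell type list, the 2 highest and 2 lowest members relative to the summed members with at least 50 counts in rich bins. From these the text gives a selection, some items are not reported here, and it says where another gene was chosen after its values were seen. Bins measured 5 median nearest-bead spacings of their own section, so they need not cover the same area in both sections. Python 3.11.15, numpy 2.4.6, scipy 1.17.1, pandas 2.3.3 and matplotlib 3.10.9 were used, and the interval step was tested on simulated counts.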

Additional observations from a re-analysis of the deposited data

How the results depend on the processing

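Leaving out Rps14 together with Rpl4, the 10 ranked classes of bins, the layers within depth classes and the bins rich in the same list were chosen after seeing the data. Of 120 recomputed values, 84 stayed within the set tolerance, 33 moved and 3 whose interval had excluded 1 turned direction; the cause was not tested. A further 2 crossed 1 from intervals that held 1, with bins of 8 spacings: young red blood cell from 1.02 to 0.926 and young stromal fibroblast from 1.00 to 0.997. The old/young share ratio of 0.940 became 0.901 with a trimmed mean of ratios and 0.924 with equal weight per bin, and turned to 1.03 without Rps14 and to 1.13 without Rps14 and Rpl4. Leaving out each quadrant gave 0.901 to 0.982 for it, 19 to 29 members higher, 7 to 10 lower, and 1.02 to 1.05 for small over large subunit, which was 1.10 without Rps14 and Rpl4. Moran's I in bins of 3 spacings was 0.212 for the young and 0.134 for the old section. With the richest 20% of bins in place of 10%, the young granulosa ratio turned to 1.13, and the oocyte ratio was 0.942, theca 0.929, stromal fibroblast 1.04, smooth muscle 1.10 and macrophage 0.944; old granulosa was 0.925, luteal 0.802, smooth muscle 1.29, periovulatory 0.825 and proliferation 1.12. With bins of 8 spacings the young theca ratio was 0.912, luteal 0.820, macrophage 0.994 and proliferation 1.12. Without Rps14 and Rpl4 the young granulosa ratio was 0.771, theca 0.816, luteal 0.764, stromal fibroblast 1.04, smooth muscle 1.01, macrophage 0.945 and proliferation 1.13, and old periovulatory 0.762. Within granulosa-rich bins the old/young ratio of 1.17 was 1.13 with the list's own counts left out of the totals and turned to 0.822 in the richest 20% of bins, and in proliferation-rich bins 1.01 became 0.956; this cut was also added after seeing the data.

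No paired analysis was possible because the 2 sections share no replicate number and no test was made. Depth limits what can be said of single members: 8 of 87 had under 20 counts in both sections. One library per age leaves the spread between animals unmeasured, and bins of 1 section are not replicates.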

Other observations

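Beside the chosen names, 8 rows carry names of ribosomal protein pseudogenes (-ps). They held 71 young and 41 old counts (13.8 and 17.5 CPM, a ratio of 1.27, 0.842 to 1.89), and with them added the summed share had an old/young ratio of 0.940. Rps14 and Rpl4 had counts that, in thinned bins, had a Pearson correlation of 0.0904 for the young and 0.0161 for the old section, on means of 2.02 and 1.29 counts per young bin. Large-subunit genes without Rpl4 and the elongation factors with Rack1 had 0.0831 and 0.0712. Counts this low bound such correlations.

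Along the luteal list the young section had its highest ribosomal protein share in neither the richest nor the poorest bins. With bins ranked in 10 classes, the richest had 1.62%, class 8 had 2.62% (2.57 to 2.67) and class 10, with least luteal counts and 1.22% oocyte counts, 2.07%. In the old section the richest class had 1.45% and the poorest 2.22% (2.15 to 2.28).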
